A study of Mus musculus with 2 samples.

Results

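The RNAs described here are long intergenic noncoding RNAs of the mouse retina, as read by the 16251 array probes that the design sets aside for them, out of 55681 non-control probes (29.2%). A member is any non-control probe whose name begins with A_30_P. Total RNA came from retinas dissected at postnatal day 12, from mice labelled wild type and from mice labelled Samd7 KO. Each genotype was measured on 1 single-colour Agilent array. The labels give neither the strain, nor the part of Samd7 that was removed, nor the number of retinas in a sample, and they name no other allele or treatment.

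Long intergenic noncoding RNAs are transcripts from between protein-coding genes that carry no long open reading frame. Many were first found as stretches of chromatin with the marks of an active promoter followed by a transcribed body, where the strand of the RNA was at first unknown. A few have known tasks, such as coating the inactive X chromosome or building nuclear bodies, but most have none assigned. Samd7 encodes a photoreceptor protein that works with Polycomb complexes, which keep genes silent.

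Each genotype has 1 array, so there is no replicate check and no p-value, and every difference below compares these 2 RNA samples only. A level is a log2 signal relative to its own array's 75th percentile. A difference is the knockout-labelled level minus the wild-type-labelled one, so positive values are higher in the sample labelled knockout. Probes measured in several spots gave a technical SD of the difference of 0.05 at levels of 0 or more, 0.09 from -2 to 0, 0.15 from -3 to -2, 0.23 from -4 to -3 and 0.30 from -5 to -4. Each member occupies 1 spot, so none has a technical SD of its own. The number of arrays limits the precision.

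The Samd7 probe was higher on the knockout-labelled array, at 6.47 against 4.68, a difference of 1.78. Unless that probe lies outside the deleted part, in which case it checks nothing, this goes against the label, and the arrays are named by their labels throughout. Retinal markers were present on both arrays: all 5 photoreceptor, 4 bipolar, 3 amacrine, 2 horizontal, 3 ganglion and 3 Müller glia markers were above background. Of the 5 photoreceptor markers 1 was 2-fold lower on the knockout-labelled array, and the log2 of their summed signal went from 9.60 to 9.19. Of 5 lens markers 4 were past 2-fold in the other direction, and their summed level went from 1.57 to 3.91. Only 3 of these 5 were above background on both arrays. The summed level of 4 pigment epithelium markers went from 4.48 to 4.07, that of 4 red cell markers from 4.51 to 4.87, that of 3 microglia markers from 3.32 to 3.12 and that of 3 endothelial markers from 0.01 to -0.17. The part of these markers in the results below was not tested. In a bulk sample, fewer cells of a type and less RNA per cell cannot be told apart.

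The array names most of these probes only by a stretch of the genome, in coordinates of mouse assembly mm9. Of the 16248 members left after outlier flags took out 3, 16191 carry such an interval and 57 carry 1 of 12 transcript names. There are 3542 distinct intervals, with a median length of 7300.5 bases, and the letters F and R in their names are read here as the forward and reverse strand. The most frequent layout was 3 probes per interval (1628 intervals), while 337 intervals had 10 probes and 427 had 1. Forward-strand probes numbered 8169 and reverse-strand probes 8009, and 13 probes in 3 intervals had no strand. Which genes lie inside or beside these intervals was not analysed here.

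These RNAs were mostly dim. On the wild-type-labelled array 6597 members (40.6%) were well above background, as the scanner software calls it, and on the knockout-labelled array 6789 (41.8%). Among all other probes the shares were 67.1% and 67.5%. A total of 6101 members were above background on both arrays, 496 on the wild-type-labelled array only, 688 on the knockout-labelled array only and 8963 (55.2%) on neither. Over all 55677 non-control probes left after flags, the same counts were 31890, 1151, 1521 and 21115 (37.9%). More probes on the knockout-labelled array only was thus a trait of the whole array. For the 6101 members the median level was -2.89 on each array, against -0.13 for the other probes above background on both. Only 815 of them had a mean level above 0. Most intervals nevertheless gave some signal, since 2551 of 3542 (72.0%) had at least 1 member above background on at least 1 array. Reverse-strand probes were above background on at least 1 array somewhat more often (47.2%) than forward-strand probes (42.4%).

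The members with the highest signals stood at similar levels on both arrays. Signals of different probes also depend on the probe, so their order is not one of RNA amounts. Probe A_30_P01031754, on the reverse strand of chr19:5801802-5802597, was the brightest at 7.81 and 7.97, a difference of 0.16. Next came A_30_P01022075, 1 of 3 reverse-strand probes for chr17:17481706-17482457, at 7.71 and 7.54. Its companions A_30_P01025369 (-0.12) and A_30_P01018662 (-0.11) differed in the same direction by similar amounts. A_30_P01031448, for the forward strand of chr14:78924115-78938125, was at 7.25 on each array. The 10 brightest members, which also include A_30_P01031264 (-0.06), A_30_P01023523 (0.01), A_30_P01021243 (-0.18), A_30_P01032016 (-0.03) and A_30_P01026458 (-0.09), all differed by between -0.18 and 0.16.

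The differences of these RNAs were centred near 0. The 6101 members above background on both arrays had a median difference of -0.003, with quartiles of -0.14 and 0.14, and 5526 (90.6%) lay within 0.5 of 0. The other probes above background on both arrays had a median of -0.03 and quartiles of -0.11 and 0.06. Across the members, Pearson's r of the 2 arrays' log2 levels was 0.986, a correlation across probes, which are not independent replicates.

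At a threshold of 2-fold, 199 of the 7285 members above background on at least 1 array (2.73%) were higher on the knockout-labelled array, where 1.81% of all non-control probes were. Another 274 (3.76%) were lower, where 2.01% of all non-control probes were. Most of these calls rest on a bound. Where only 1 array held a probe above background, the difference was taken against a floor, the dimmest signal that the other array still called well above background, or against its own dim signal if that was higher. A bound, given below as at least so many fold, holds for the signals as processed here and is no limit under another background correction. Of the 199 higher members 127 were such bounds, and of the 274 lower members 199 were. Among members above background on both arrays, 72 were higher (1.18%, against 1.04% of all non-control probes) and 75 lower (1.23%, against 0.803%). At 1.5-fold 449 members were higher (6.16%, against 3.84%) and 547 lower (7.51%, against 4.48%). At 4-fold 62 members were higher (0.851%, against 0.532%) and 86 lower (1.18%, against 0.561%). Background correction with the normexp model, which adds an offset of 50 and pulls dim differences toward 0, left 26 higher (0.357%, against 0.558% of all non-control probes) and 17 lower (0.233%, against 0.272%), all of them among the 199 and 274. Under normexp the members' shares were thus below those of all probes, where without it they were above.

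The shares differed with brightness. Of the members above background on both arrays 48.2% had a mean level below -3, against 19.1% of the other probes. Between -4 and -3, 2.48% of members were 2-fold higher and 2.48% lower, against 1.85% and 2.35% of the other probes. From -5 to -4 the shares were 1.19% and 1.62% for members and 1.03% and 1.83% for the others. From -3 to -2 they were 1.08% and 0.897% against 1.28% and 1.02%. From -2 to 0 the shares were 0.488% and 0.570% against 0.993% and 0.532%. At levels of 0 or more 0.368% of members were higher and 0.123% lower, against 0.797% and 0.191%. For higher calls, members were thus above the other probes in the ranges from -5 to -3 and below them in each range from -3 up. For lower calls, they were above the others from -4 to -3 and from -2 to 0, and below them in the remaining ranges. No difference between shares was tested.

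An interval with several probes shows whether a difference is shared along that stretch of the genome. In 1529 combinations of interval and strand at least 2 probes were above background on both arrays, and the median range of their differences was 0.28. Probes of an interval share that stretch and are not replicates, and whether they read the same transcript was not tested. In 8 of these combinations all such probes were past 2-fold the same way, 6 of them higher on the knockout-labelled array and 2 lower. Of 153 higher members with another measured probe in their interval, 61 (39.9%) had a second probe called higher there, while 44 of 209 lower members (21.1%) had a second probe called lower. The second probe could be on either strand. Of the 61, 35 lie in only 7 intervals, so the 2 shares rest on few intervals and their difference was not tested. Averaging the probes of an interval and strand left 35 of 3206 measured combinations 2-fold higher (1.09%) and 60 lower (1.87%). No share over all non-control probes was computed for these averages or for the second probes. In 7 intervals at least 3 probes were 2-fold higher and in 4 at least 3 were 2-fold lower, a cutoff chosen after the values were seen. Normexp left 1 and 0 such intervals, and every other normalization left the 7 but only 2 or 3 of the 4. These 11 intervals are described next.

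The interval chr12:56607657-56613582, 5.93 kb long, had the greatest differences among these. All 10 of its probes, 5 for each strand, were above background on the knockout-labelled array, and only 2 were on the wild-type-labelled array. The reverse-strand probe A_30_P01030816 went from -5.77, not well above background, to -0.51, and was at least 29.4-fold higher. Reverse-strand probes A_30_P01020345 and A_30_P01033291 were at least 19.6-fold and 14.1-fold higher. On the forward strand A_30_P01023545 was at least 13.7-fold higher, A_30_P01031340 13.1-fold, A_30_P01030229 12.9-fold and A_30_P01028811 8.89-fold. Reverse-strand probe A_30_P01033399 was at least 6.99-fold higher. Only forward-strand probe A_30_P01023630 was measured on both arrays among the higher ones, at -5.11 and -2.66, a difference of 2.45. The exception was reverse-strand probe A_30_P01027057, at -4.85 and -5.14. Signal was thus higher on both strands in 9 of 10 probes. Under normexp the same 9 probes stayed at least 2-fold higher, but with smaller log2 differences, from 1.04 to 2.60. The 2.60 is that of A_30_P01030816, whose bound without normexp was 4.88 on the same log2 scale.

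A second interval with probes called higher on both strands was chr7:4827340-4863315, 36.0 kb long with 20 probes. Of these, 11 were above background on at least 1 array. Its forward-strand probe A_30_P01027439 was by far the brightest there and went from 0.97 to 2.55, a difference of 1.58 (1.54 under normexp). In linear scanner units it read 1126 for the wild-type label and 3245 for the knockout label. Another 4 forward-strand probes, A_30_P01023579 (1.54), A_30_P01029750 (1.48), A_30_P01029235 (1.20) and A_30_P01029418 (1.14), were higher by similar amounts from levels between -4.14 and -3.10. On the reverse strand A_30_P01031013 (1.91) and A_30_P01023469 (1.68) were higher, whereas A_30_P01018374 (-0.15) and A_30_P01020536 (0.17) were near level. The remaining probes, measured on 1 array only, were A_30_P01023250, at least 1.26-fold higher, and A_30_P01026371, at least 1.39-fold lower. Among these 11 probes only A_30_P01027439 stayed 2-fold higher under normexp.

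In 4 further intervals the higher probes were on the reverse strand only. Over chr3:21964899-21974524 all 5 reverse-strand probes were higher, by 1.11 to 1.24, the brightest being A_30_P01022266, which went from -0.39 to 0.76. The others were A_30_P01020934 (1.24), A_30_P01029822 (1.23), A_30_P01030305 (1.22) and A_30_P01018336 (1.11), and under normexp the 5 values were 0.88 or more. The only forward-strand probe above background there, A_30_P01022215, was at -3.53 and -3.51. In chr1:52507374-52514124 the 5 reverse-strand probes were A_30_P01022134 (1.09, from -4.11 to -3.03), A_30_P01029718 (1.28), A_30_P01017659 (1.38), A_30_P01029936 (1.39) and, above background on 1 array only, A_30_P01032318, at least 2.43-fold higher. No forward-strand probe of that interval was above background. The 3 reverse-strand probes of chr10:93975406-93977476 were higher by 1.43 (A_30_P01018116), 1.43 (A_30_P01024901) and 1.49 (A_30_P01032355), and this interval has no forward-strand probe. The same holds for chr8:122728333-122752130, where the 3 probes were higher by 1.02 (A_30_P01022849), 1.15 (A_30_P01032317) and 1.32 (A_30_P01023479). Normexp kept 1 probe of the chr3 interval and 1 of the chr10 interval 2-fold higher and none of the chr1 and chr8 intervals.

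The seventh interval with at least 3 higher probes, chr16:59557120-59602070, was mixed. Of its 16 measured probes 3 reverse-strand probes were higher, A_30_P01018074 (1.11), A_30_P01025628 (1.07) and A_30_P01028437, at least 2.51-fold higher. Its forward-strand probe A_30_P01024335 was at least 4.42-fold lower. The other 12 lay between -0.30 and 0.80.

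On the lower side, in chr10:69669025-69686275, 4 of 5 forward-strand probes and 1 reverse-strand probe were past 2-fold. Its 5 forward-strand probes went down together, A_30_P01032544 from -0.19 to -1.34, A_30_P01031764 from -0.42 to -1.44, and A_30_P01027510 from -0.79 to -1.81. A_30_P01017637 (-1.15) and A_30_P01031350 (-0.82) completed them. A shorter interval inside it, chr10:69679644-69682458, has forward-strand probes that gave -1.17 (A_30_P01019232) and -1.16 (A_30_P01029918). On the reverse strand of the longer interval A_30_P01027211 was at least 2.87-fold lower, A_30_P01018532 was at -0.59 and A_30_P01029185 gave no usable bound. Under normexp the 8 measured probes of the longer interval lay between -0.92 and -0.08, and none was 2-fold lower. With median centring 3 of the 5 calls remained, as A_30_P01031764 and A_30_P01027510 came to -0.99.

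The 3 forward-strand probes of chr8:13200727-13207714 were lower as well. A_30_P01028073 went from -2.24 to -3.44 and A_30_P01020650 from -3.02 to -4.22, a difference of -1.20 in each, and A_30_P01022403 was at least 3.54-fold lower. In chr15:99762797-99786472 the 3 measured probes were above background on the wild-type-labelled array only, and were at least 3.99-fold (A_30_P01023892), 3.39-fold (A_30_P01020459) and 2.10-fold (A_30_P01025694) lower. In chr8:67542714-67561694 forward-strand probes A_30_P01025182 and A_30_P01032100 were at least 5.63-fold and 2.48-fold lower and A_30_P01022915 went from -3.69 to -4.69, while A_30_P01029011 was at least 1.13-fold higher. A_30_P01022915 came to between -0.99 and -0.95 under the other normalizations except normexp, which leaves 2 lower probes in that interval. Under loess A_30_P01025694 came to -0.98, which leaves 2 in the chr15 interval. Under normexp no probe of these 3 intervals was 2-fold lower.

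Neighbouring intervals moved together along 1 stretch of chromosome 13. In chr13:74568375-74756950, over 189 kb, 7 intervals hold 31 probes, and 29 of them were measured. Of these 29, bounds included, 27 lay above 0, 10 were at least 2-fold higher and 1 was at least 2-fold lower. The brightest, A_30_P01030810, went from 1.15 to 1.69 and the next, A_30_P01030736, from -0.81 to -0.21, both on the reverse strand. Further along, A_30_P01022503 went from -0.63 to 0.06, A_30_P01030694 from -1.54 to -0.59 and A_30_P01032925 from -1.47 to -0.65. A_30_P01030566 (1.06) and A_30_P01018803 (1.48), for chr13:74743335-74754728, and A_30_P01025718 (1.98), for chr13:74642700-74701900, were among those past 2-fold. The lower probe was A_30_P01022555 (-1.54), in an interval where its 2 measured companions were at least 1.57-fold and 1.77-fold higher. Several of the 7 intervals overlap, and none of their probes stayed 2-fold apart under normexp. The stretch was chosen after its values were seen. Across the genome 11 pairs of separate intervals within 100 kb of each other each had a higher probe, 6 of them in this stretch, and 7 such pairs each had a lower probe. The 6 pairs are combinations of only 5 intervals. Among overlapping intervals 5 pairs each had a higher probe and 10 each had a lower one. In all, 156 intervals had a higher probe and 249 a lower one. The pair counts stand without the number of all interval pairs at such distances, so they do not show whether called intervals cluster.

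Most of the lowest single members had no other probe of their own interval called lower, with overlapping intervals not counted. The 12 lowest among members above background on both arrays, all below 0 in each normalization run, ranged from -2.57 to -1.97, and all started from dim levels between -3.05 and -2.05. The lowest was A_30_P01023725, forward strand of chr11:5387350-5403150, which went from -2.78 to -5.35. The 2 measured reverse-strand probes of that interval, A_30_P01021274 and A_30_P01026841, stood at -0.003 and -0.05. A_30_P01023657 (-2.32), forward strand of chr17:33995525-34028025, had 5 measured companions between -0.004 and 0.57. A_30_P01033049 (-2.19), of chr10:66640530-66644032, had companions at 0.51 and 0.60. A_30_P01026771 (-1.99), of chr16:4867322-4874772, had 9 between -0.29 and 0.17, 2 of them by bounds. Of the 12, each had at least 1 other measured probe in its interval, and 3 had another one called lower: A_30_P01021949 (-2.46), A_30_P01026126 (-2.08) and A_30_P01025570 (-2.04). The first 2 of these 3 also had a companion called higher, at 1.49 and, by a bound, at least 2.46-fold. The remaining lowest members were A_30_P01022605 (-2.17), A_30_P01019399 (-2.09), A_30_P01020287 (-2.08), A_30_P01025183 (-1.98) and A_30_P01020408 (-1.97). Under normexp all 12 lay between -0.97 and -0.61.

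Among the 12 highest members measured on both arrays, from 1.63 to 2.45, 10 had another measured probe in their interval and 4 had another one called higher there. Those 4 belong to the chr12, chr7 and chr13 intervals described above. A_30_P01018064 (2.20), of chrX:138966975-138981525, had 3 companions between -0.09 and -0.01. A_30_P01025069 (1.94), of chr7:88668435-88674440, had companions at -0.65 and -0.03. A_30_P01032313 (2.27), of chr13:54397214-54407430, and A_30_P01020613 (2.08), of chr9:61076051-61076314, had no other measured probe in their own intervals. An interval overlapping that of A_30_P01032313 had 8 measured probes, 2 of them called higher. A_30_P01028792 (1.84), of chr6:52032838-52033444, had 1 measured companion at 0.36. A_30_P01032711 (1.70), on chromosome 18, had 1 at 0.77. A_30_P01021998 (1.68) and A_30_P01019928 (1.63) had none called higher, and A_30_P01019928 had a companion called lower by a bound, at least 2.06-fold. Outside the chr12 interval, A_30_P01020613 was the only 1 of these 12 that stayed 2-fold higher under normexp, at 1.01.

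The largest bounds on the lower side were of similar size and each in an interval of its own. They were A_30_P01027886, on chromosome 18 (at least 10.8-fold), A_30_P01024673, of chr16:91174611-91200786 (at least 10.3-fold), A_30_P01028804, of chr11:22510175-22522025 (at least 9.62-fold), A_30_P01030263, of chr10:81111250-81130625 (at least 9.45-fold), and A_30_P01030651, of chr2:127484758-127485118 (at least 9.36-fold). Their levels on the wild-type-labelled array lay between -2.33 and -2.12. None of the 5 had another probe of its interval called lower, and 3 had no other measured probe. Under normexp the 5 stayed 2-fold lower, with log2 differences between -1.47 and -1.22, smaller than their bounds of -3.44 to -3.23 without it. The 5 largest bounds on the higher side all belong to the chr12 interval.

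Opposite strands of an interval could be compared in 1067 intervals that have probes for each. Signal above background on at least 1 array came from both strands in 644 (60.4%), from the forward strand only in 166, from the reverse strand only in 174 and from neither in 83. In 489 intervals each strand had a probe above background on both arrays. The strands' mean differences between genotypes lay a median of 0.19 apart, had the same sign in 271 (55.4%) and correlated weakly across intervals (Pearson's r 0.12, Spearman's rho 0.12). This is a description across intervals on the same 2 arrays. In none of the 489 were the mean differences of both strands, over probes above background on both arrays, at least 2-fold in the same direction, and in none were they 2-fold in opposite directions.

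The widest gaps between strands rested on few probes. The largest gap, 2.74, was that of chr12:56607657-56613582, where each strand has 1 probe measured on both arrays and the other 8 probes have only bounds, which were not used here. The next, 2.54, came from A_30_P01023725 on chr11:5387350-5403150. In chr11:102878974-102888924 the forward-strand probe A_30_P01021014 was at -1.45, while 3 reverse-strand probes averaged -0.01. In chr17:13806767-13824342 the forward strand averaged -0.84, from A_30_P01019959 (-1.69) and the much brighter A_30_P01019126 (0.003), and the reverse strand 0.52, led by A_30_P01027140 (0.93). In chr2:71576218-71603818 the forward-strand probe A_30_P01031575 was at -0.04 and the reverse-strand probe A_30_P01025376 at -1.30.

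The 57 members with a transcript name read well-known noncoding RNAs, and NEAT1 was higher in each of its probes by a similar amount. NEAT1 is the scaffold of paraspeckles, bodies in the nucleus that hold back RNAs and proteins. Its 5 probes went from levels between -1.78 and -0.87 on the wild-type-labelled array to between -1.21 and -0.29 on the other. Their differences were 0.45, 0.45, 0.57, 0.58 and 0.58, and none reached 2-fold. Repeated spots at this brightness had a technical SD of 0.09, which does not cover variation between samples. A probe outside the set, named Neat1 through its RefSeq accession, differed by 0.59. Under normexp the 5 values lay between 0.31 and 0.49.

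NEAT2, a synonym of Malat1 in RefSeq, is a nuclear RNA of splicing speckles. Its 3 probes were at -0.15, -0.06 and -0.05. XIST, which coats the inactive X chromosome, had 5 probes between 1.97 and 3.74 on the wild-type-labelled array and differences of -0.15 to -0.08. The 5 probes of H19, an imprinted RNA of growing tissue, had differences of -0.16 to -0.06. TUG1, first described as a taurine-responsive transcript of the developing retina, had 5 differences between -0.01 and 0.27. The 4 probes of the transcript labelled BRN1-A lay between -0.02 and 0.13. No member of these 5 transcripts was 2-fold apart.

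TSIX, the antisense partner of XIST, was the only named transcript with calls past 2-fold. None of its 5 probes was above background on the wild-type-labelled array. On the knockout-labelled array A_30_P01019663 stood at -2.03, at least 10.3-fold higher, and A_30_P01033590 at -3.82, at least 2.97-fold higher, whereas the other 3 were not above background there either. Under normexp these probes gave log2 differences of 1.39 and 0.16. Of 5 KCNQ1ot1 probes 3 were measured, A_30_P01028756 at 0.19, A_30_P01026203 at -0.05 and A_30_P01026714 at least 1.39-fold higher. NRON had 2 measured probes of 5, at -0.01 and 0.10, and PINC (-0.15) and HOTAIR (-0.15) had 1 each. None of the 5 lincP21 probes was above background on either array.

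For 3 intervals the names give no strand. All 5 probes of chr17:12941161-12944859 were above background on both arrays and above 0, at 0.04, 0.17, 0.26, 0.50 and 1.03, the last being A_30_P01022766, which went from -4.10 to -3.07. The 3 probes of chr3:34856791-34869544 lay between -0.25 and -0.02. In chr6:52032838-52033444 only 2 of 5 probes were measured, the already named A_30_P01028792 and A_30_P01031484 (0.36).

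Other long noncoding RNAs sit on the array outside this probe set, under RefSeq accessions. Of a list of 42 such genes 24 had a probe, and 33 probes of 22 genes were above background on both arrays. Their median difference was -0.002, against -0.02 over all non-control probes above background on both arrays, with 1 probe at least 2-fold higher and 1 lower. Vax2os, an RNA antisense to the homeobox gene Vax2 that is made in the retina, was lower in both of its probes, at -1.60 (from 1.13 to -0.47) and -0.66 (from 1.89 to 1.23). Kcnq1ot1, the imprinted antisense RNA of the Kcnq1 cluster, had 1 probe at 1.87 (from -3.83 to -1.97, and 1.03 under normexp) and a brighter one at 0.19, so its probes disagreed. The other 29 probes lay between -0.35 for Dleu2 and 0.59 for Neat1.

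The remaining genes of that list were near level. Six3os1, an abundant RNA of the developing retina, was at -0.02 in its brighter probe and 0.01 in the other. The imprinted RNAs Meg3 (-0.18, -0.11 and -0.11), Mirg (-0.03), Peg13 (-0.09), H19 (-0.06) and Dio3os (0.15) and the antisense RNA Airn (0.41 in a dim probe and 0.10) differed little. So did Malat1 (-0.16), Tug1 (-0.21 to 0.12), Snhg1 (0.002), Pvt1 (0.29 and 0.12), Pantr1 (-0.002), Mir17hg (0.25), Firre (0.03) and Crnde (0.06). The X inactivation centre RNAs Xist (-0.12 and -0.11), Ftx (-0.19 and -0.10) and Jpx (0.23) did too. For Xist, H19, Neat1 and Malat1 (NEAT2 in the set) the probes outside the set differed in the same direction as all the members for that transcript. For Tug1 the probes outside the set went in both directions, as did the members. For Kcnq1ot1 those outside were above 0, while the members went in both directions.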

How the data were processed

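The authors deposited 1 scanner file per array and a value table. Per the file headers, the linear intensity values come from Agilent Feature Extraction 11.5.1.1 with protocol GE1_1105_Oct12, on a design built on mm9. The deposited table, with column medians of 107.8 (wild type) and 106.0 (knockout), holds the same processed intensity values on a linear scale, times a constant per array whose rule is not stated, and served as an alternative. Outlier-flagged spots were left out, processed signals were put on a log2 scale, the 75th percentile of the array's non-control spots was subtracted, and repeated spots were averaged. A probe counted as called at 2-fold. Counting was tested on data simulated from members above background on the wild-type-labelled array at levels above -3, and bounds on a few made-up values. Dimmer members were not simulated. Probes outside the set were named by accession without version in the RefSeq table of GRCm38.p6, used for names only, which matched 28330 of them. Tools were Python 3.11.15, R 4.3.3 and limma 3.58.1.

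The probes named are the 12 highest and 12 lowest above background on both arrays that kept their sign in all normalizations, the 5 largest bounds each way, the 10 brightest, every measured probe of an interval and strand whose probes were all 2-fold apart, the 5 widest strand gaps, and the named transcripts. Other named probes were chosen after their values were seen. The set and the lists were chosen with earlier results of these data known. Alternatives changed normalization, filter, threshold, detection call, unit and interval.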

Additional observations from a re-analysis of the deposited data

How the results depend on the processing

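The counts of 199 higher and 274 lower probes depended on dim spots. Normexp on median signals gave 26 and 17, a filter on both arrays 72 and 75, all probes unfiltered 807 and 1077, a mean signal at or above the median of all probes 59 and 51, and interval and strand as the unit 35 and 60. A threshold of 1.5-fold gave 449 and 547, and 4-fold 62 and 86. Median centring, quantile, loess, the other percentile, the deposited table and keeping flagged spots gave 200 to 209 higher and 259 to 276 lower. Shares over all non-control probes were computed only for the main, both-array, normexp, 1.5-fold and 4-fold counts. The other counts are therefore not set against the whole array. The positive-and-significant call put 11071 and 11170 members above background on the wild-type-labelled and knockout-labelled arrays, and the 95th percentile of negative control spots 10776 and 10953, against 6597 and 6789. The median difference lay between -0.13 with no filter and 0.03. Merging overlapping intervals gave 719 with signal on both strands, against 644. Added after seeing the data, normexp left 0 interval and strand combinations with all probes 2-fold higher (6 before) and 0 lower (2 before), and 1 interval with at least 3 probes higher (7 before) and 0 lower (4 before), the last being 2 under loess and 3 under the other 4 normalizations. Of 177 probes under the naming rule 110 moved under normexp by more than the technical SD, and 19 of the 71 past 2-fold stayed so. No sign of a called probe turned. Normexp with mean in place of median signals was not run, for want of that column. No paired analysis was possible because a single array stands for each genotype. Signal over background limits all differences below a level of -3.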

Other observations

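Members with an interval lay on chromosomes 1 to 19 and X. The share above background on at least 1 array ran from 36.2% on chromosome 9 to 52.3% on chromosome 5, and was 45.6% on the X chromosome. The median difference of members above background on both arrays lay between -0.04 on chromosome 10 and 0.03 on chromosome 16. The share called higher was 4.73% on chromosome 13, which holds the run of neighbouring intervals, and 1.02% on chromosome 2, against 2.73% of all members. The share called lower was 6.51% on chromosome 10 and 2.57% on chromosome 5, against 3.76% of all members. Of the 19 lower members on chromosome 10, 5 lie in chr10:69669025-69686275 and 2 in the shorter interval inside it.

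Interval length went with detection only loosely. Probes of intervals of 1 to 5 kb were above background on at least 1 array most often (53.2%), and those of intervals under 1 kb least often (39.9%). Above 50 kb the share was 42.9%. The longest interval spans 7128487 bases and the shortest 62.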
